A study of Homo sapiens with 6 samples.

Results

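AP-1 is a family of dimeric transcription factors, and the 10 genes described here encode its subunits FOS, FOSB, FOSL1, FOSL2, JUN, JUNB, JUND, ATF3, BATF3 and MAFF. They were taken by gene symbol from a table of 27852 genes measured by RNA-seq in H69AR, a human small cell lung cancer line made drug resistant by long culture of H69 cells in adriamycin and no longer neuroendocrine. The 6 libraries fall into 3 labelled siTREX1, from cells transfected with an siRNA against the cytoplasmic DNA exonuclease TREX1 (siRNA #1), and 3 labelled siCtrl, from cells given the control siRNA, all made from total RNA on day 3 after transfection with a strand-specific kit. The comparison addresses how the transcriptome of these resistant cells differs after siTREX1. All libraries are of 1 cell line. The labels do not state whether each stands for a culture of its own, and the p-values therefore rest on library-to-library spread, part or all of which may be technical.

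AP-1 proteins bind DNA as pairs through a basic region and a leucine zipper (bZIP). Jun proteins pair with each other or with Fos proteins, Fos proteins need a partner, and some ATF, BATF and Maf proteins join the same network. The pairs bind the TPA response element (TRE) or the cAMP response element (CRE), several members are immediate early genes whose mRNA rises within minutes of growth factors, cytokines or stress and is then quickly degraded, and in carcinoma cells FOSL1 and JUN are known for their association with invasive, mesenchymal states.

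TREX1, the target of the siRNA, was measured first as a check of the labels. Estimated counts of its transcript were 594, 298 and 301 in the siTREX1-labelled libraries 1, 2 and 3, against 506, 513 and 509 in siCtrl libraries 1, 2 and 3. This transcript was therefore not lower in library 1 labelled siTREX1. In CPM, estimated counts per 1000000 counts of named genes, the level was 28.4, 16.1 and 18.5 in the siTREX1-labelled libraries and 22.5, 31.2 and 24.7 in the siCtrl libraries, giving a log2 fold change of -0.33 ± 0.24 (SE) and an adjusted p of 0.349 in the quasi-likelihood test of edgeR. Without siTREX1 replicate 1 it was -0.62 (adjusted p = 0.0499 from edgeR). The listed transcript, of 629 nt with a coding sequence of 525 nt, is 1 of 6 in GENCODE 29. Other TREX1 transcripts are not covered by these values. The listed one lies on chromosome 3 of GRCh38 within the span of ATRIP on the same strand, so that reads may be shared with ATRIP (log2 fold change 0.14, adjusted p = 0.622 from edgeR). Directions below are those of the siTREX1-labelled over the siCtrl libraries.

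The libraries summed to between 16329106 and 22482687 estimated counts. Of 13221 genes tested, 2349 (17.8%) were higher and 2049 (15.5%) lower at an adjusted p under 0.05, the threshold used throughout, which is 33.3% in either direction, and the median log2 fold change was -0.02. The cells are labelled small cell lung cancer, but the neuroendocrine markers NEUROD1, CHGA and NCAM1 were each under 0.2 CPM in every library and GRP was at 0, while the mesenchymal protein vimentin (VIM) averaged 2537 CPM in the siTREX1-labelled and 2483 CPM in the siCtrl libraries. The 8 neuroendocrine markers summed to 34 to 36.5 CPM in the siTREX1-labelled libraries and 43.5 to 45.3 CPM in the siCtrl libraries, mostly DLL3 and INSM1, and 1 of the 3 tested, DLL3, fell (log2 fold change -0.44, adjusted p = 0.00401 from edgeR). Of the 8 non-neuroendocrine and mesenchymal markers, summed at 2887 to 2899 CPM in the siTREX1-labelled and 2804 to 2829 CPM in the siCtrl libraries, 2 fell, ZEB1 and REST (log2 fold change -0.25 and adjusted p = 0.038 from edgeR for each). The part of these markers in the AP-1 values was not tested. The 6 immune cell markers, mostly CD68, summed to 9.26 to 13.9 CPM in the siTREX1-labelled and 7.14 to 12.7 CPM in the siCtrl libraries. Of these, CD68 stood at 4.42 to 11.2 CPM and PTPRC at 1.44 to 2.21 CPM over all libraries, and neither passed the test. The 4 untested ones had at most 19 estimated counts in any library, with CD3E at most 0.27 CPM. Of the 7 fibroblast and endothelial markers, summed at 711 to 749 CPM in the siTREX1-labelled and 754 to 757 CPM in the siCtrl libraries, nearly all was COL1A1 and COL3A1, the others were each at most 1.54 CPM, and COL3A1 fell (log2 fold change -0.12, adjusted p = 0.0092 from edgeR).

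Promoter sequences show where AP-1 and CREB-type words stand at the members' own start sites. Of the 10 members, 8 matched the RefSeq promoter table (GRCh38.p14, 250 bases before to 50 after each start), with 10 entries in all, and FOSL1 and BATF3 did not. The words searched, on both strands, were the TRE (TGAGTCA or TGACTCA), the CRE (TGACGTCA) and, added with the data seen, the 6-base CRE core (TGACGT or ACGTCA), which lies within every CRE, and TGACATCA or its reverse complement TGATGTCA. Printed here are the entries of FOS, FOSL2, JUN, JUND and MAFF that hold such a word, 5' to 3' on the gene's strand, with the words in capitals.
FOS promoter (chr14:75278578-75278877, plus strand): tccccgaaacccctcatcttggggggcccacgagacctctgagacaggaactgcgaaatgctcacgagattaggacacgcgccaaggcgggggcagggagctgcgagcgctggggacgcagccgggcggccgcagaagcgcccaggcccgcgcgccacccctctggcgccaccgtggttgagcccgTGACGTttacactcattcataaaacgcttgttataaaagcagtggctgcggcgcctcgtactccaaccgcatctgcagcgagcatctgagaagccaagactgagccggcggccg
FOSL2 promoter (chr2:28392608-28392907, plus strand): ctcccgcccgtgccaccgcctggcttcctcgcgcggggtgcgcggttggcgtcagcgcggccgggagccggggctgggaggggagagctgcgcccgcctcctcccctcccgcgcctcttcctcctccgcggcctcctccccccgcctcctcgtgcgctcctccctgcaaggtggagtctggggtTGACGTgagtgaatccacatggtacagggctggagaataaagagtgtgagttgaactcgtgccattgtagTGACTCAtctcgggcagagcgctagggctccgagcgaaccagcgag
JUN promoter (chr1:58783998-58784297, minus strand): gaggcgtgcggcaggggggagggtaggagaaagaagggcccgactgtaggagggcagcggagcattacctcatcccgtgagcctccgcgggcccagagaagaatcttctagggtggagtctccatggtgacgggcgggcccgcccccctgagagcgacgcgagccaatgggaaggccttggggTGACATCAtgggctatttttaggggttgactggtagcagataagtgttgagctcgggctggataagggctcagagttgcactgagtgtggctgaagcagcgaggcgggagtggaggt
JUND promoter (chr19:18281573-18281872, minus strand): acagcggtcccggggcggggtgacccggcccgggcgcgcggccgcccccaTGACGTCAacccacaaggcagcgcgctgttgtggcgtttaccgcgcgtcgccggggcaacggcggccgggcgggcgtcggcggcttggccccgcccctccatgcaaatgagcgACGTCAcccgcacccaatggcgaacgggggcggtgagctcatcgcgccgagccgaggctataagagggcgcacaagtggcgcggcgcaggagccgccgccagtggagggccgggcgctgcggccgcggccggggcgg
MAFF promoter (chr22:38201744-38202043, plus strand): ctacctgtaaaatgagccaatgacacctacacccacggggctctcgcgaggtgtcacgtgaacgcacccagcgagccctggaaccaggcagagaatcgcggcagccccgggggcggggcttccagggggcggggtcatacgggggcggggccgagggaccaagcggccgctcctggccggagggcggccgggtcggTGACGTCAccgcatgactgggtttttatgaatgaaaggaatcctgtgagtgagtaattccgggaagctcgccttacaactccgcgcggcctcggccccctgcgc

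A TRE stood in 1 of the 8 matched members, FOSL2, 4 bases after the start site, and 4.95% of the 35116 promoter entries compared held one. These entries leave out part of the table by chromosome, and they are counted per entry, the members per gene. A CRE stood in JUND, 200 bases before the start, and in MAFF, 54 before, against 1.85% of promoters. The CRE core was in 5 members, with FOS at 64, FOSB at 60 and FOSL2 at 66 bases before the start beside JUND and MAFF, against 7.98% of promoters. TGACATCA was searched as a word of the JUN promoter itself, so its presence in JUN, 67 bases before the RefSeq start, was fixed by that choice. It was also in 1 of the 2 ATF3 entries, 123 before, against 2.61% of promoters. The JUNB entry held none of these words. Both a member that rose (FOSL2) and one that did not pass the test (JUND, other than with a GC trend removed) thus carry a TRE or CRE, and a match is a description of letters, not of binding. The transcript listed for JUN starts 280 bases before the RefSeq start, those of FOS and MAFF start 54 and 112 before it, and that of ATF3 starts far from both of its entries.

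Of the 10 members, 9 passed the filter on low counts and FOSB did not. Of these 9, 6 rose (FOS, FOSL1, FOSL2, JUN, JUNB and ATF3), 0 fell in edgeR (0 also at an unadjusted p under 0.05, and 0 in DESeq2 and limma-voom), and 3 did not pass the test (BATF3, MAFF and JUND, of which JUND was higher, at 0.22, with a GC trend removed), with a median log2 fold change of 0.41. Among all tested genes 17.8% were higher. In 7 of the 9, MAFF besides the 6, every siTREX1-labelled library was above every siCtrl library in CPM, as were 26.8% of all tested genes. With no decrease of the listed TREX1 transcript in library 1 labelled siTREX1, each fold change was also taken without that library. FOSL1, FOSL2, JUN, JUNB and ATF3 kept an adjusted p under 0.05 in edgeR (0.00399 to 0.00952), and FOS did not (0.0713).

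**Figure D1:**
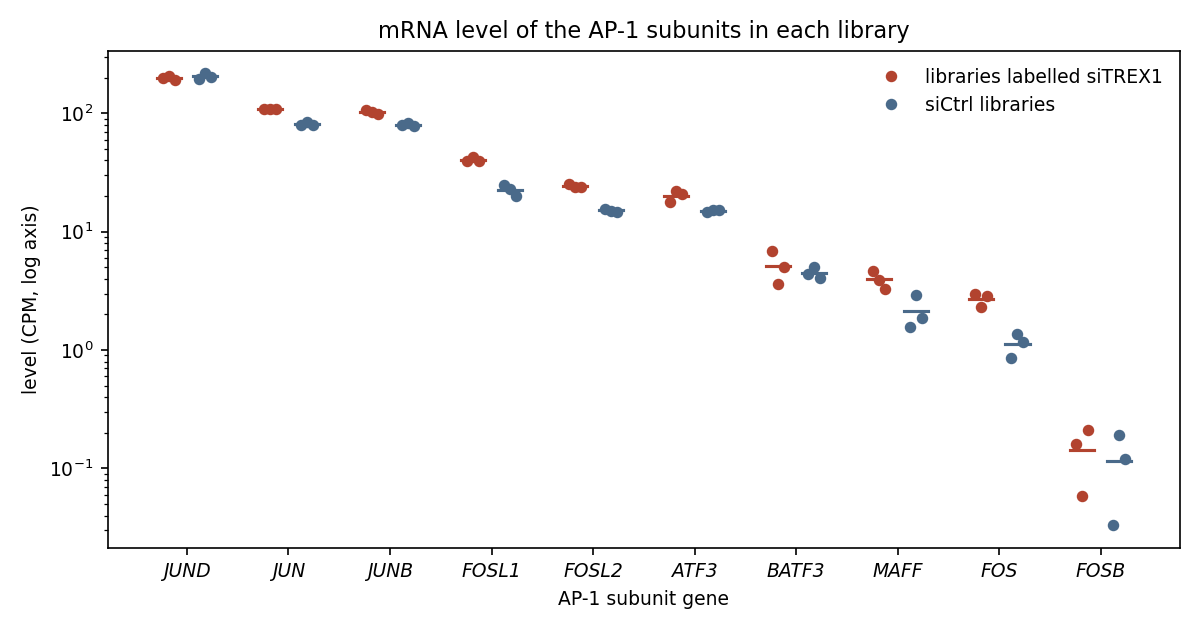
Level of each AP-1 subunit mRNA in CPM (log axis) in the 3 siTREX1-labelled libraries (left of each pair) and the 3 siCtrl libraries (right), with each point 1 library and each line a mean. JUND, JUN and JUNB stood highest and FOSB lowest in both groups, and the groups did not overlap for FOS, FOSL1, FOSL2, JUN, JUNB, ATF3 and MAFF.

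As far as transcript length goes, levels of the listed transcripts can be compared between members, because the deposited values do not scale with it. The listed transcript is the only one in GENCODE 29 for JUN and JUNB, but 1 of 10 for FOS, 1 of 11 for ATF3 and 1 of 13 for FOSB. Members with several transcripts may therefore be understated in the order, percentiles, sums and shares given here. GC content also differs between the members, from 50.8% for ATF3 to 69.7% for JUND. Its part in the levels within a library was not tested. The order of the mean levels was the same in both groups, JUND, JUN, JUNB, FOSL1, FOSL2, ATF3, BATF3, MAFF, FOS and FOSB. In the siTREX1-labelled libraries only BATF3 and MAFF, as neighbours in this order, overlapped in range, and in the siCtrl libraries JUN overlapped JUNB and FOSL2 overlapped ATF3. JUND stood above 95.5% of the detected genes in the siTREX1-labelled libraries and 96% in the siCtrl libraries, and FOS above 38.3% in the siTREX1-labelled and 30.6% in the siCtrl libraries.

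Fos family members, the partners that cannot pair with themselves, rose wherever they could be tested. FOS, the immediate early gene from which the family takes its name, is on chromosome 14 of GRCh38 (75278774 to 75282230, plus strand, 4 exons, by the listed transcript in GENCODE 29 as for all members). It had 2.95, 2.29 and 2.89 CPM in the siTREX1-labelled libraries and 0.851, 1.36 and 1.18 CPM in the siCtrl libraries. These rest on 61.6, 42.5 and 47.2 estimated counts in the siTREX1-labelled libraries, against 19.1, 22.3 and 24.4 in the siCtrl libraries. The groups did not overlap, and FOS had the highest fold change of the tested members, 2.39-fold (log2 1.26, SE 0.29, adjusted p = 0.0193 from edgeR). At these low counts the call was lost in edgeR without siCtrl replicate 1 (adjusted p = 0.0584), siCtrl replicate 3 (0.0604), siTREX1 replicate 1 (0.0713) or siTREX1 replicate 3 (0.0582), with log2 fold changes of 1.09 to 1.29.

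FOSL1 (Fra-1), a Fos protein without a strong transactivation domain, is on chromosome 11 (65892220 to 65900526, minus strand, 4 exons). It had 39.8, 42.5 and 39.9 CPM in the siTREX1-labelled libraries and 25, 22.8 and 20.2 CPM in the siCtrl libraries. All siTREX1-labelled libraries were higher, by 1.77-fold (40.7 ± 1.5 CPM in siTREX1-labelled and 22.7 ± 2.37 CPM in siCtrl libraries, SD, n = 3 each, log2 fold change 0.83, SE 0.09, adjusted p = 0.0012 from edgeR). FOSL2 (Fra-2), its closest relative, is on chromosome 2 (28392858 to 28417312, plus strand, 4 exons). It had 25.4, 23.7 and 23.7 CPM in the siTREX1-labelled libraries and 15.7, 15 and 14.7 CPM in the siCtrl libraries. It was 1.58-fold higher, again without overlap (24.3 ± 0.984 CPM in siTREX1-labelled and 15.1 ± 0.525 CPM in siCtrl libraries, SD, n = 3 each, log2 fold change 0.66, SE 0.06, adjusted p = 0.000936 from edgeR). Both kept their calls in all 14 other settings, with log2 fold changes of 0.75 to 0.93 for FOSL1 and 0.63 to 0.69 for FOSL2.

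FOSB, which like FOS is an immediate early gene, could not be tested. It had 3.37, 1.07 and 3.44 estimated counts in the siTREX1-labelled libraries and 0.745, 3.15 and 2.5 in the siCtrl libraries. The groups overlapped, and with about 3 counts or fewer a difference was not detectable at this depth. The transcript listed for FOSB has 2 exons and a coding sequence of 531 nt and is 1 of 13 in GENCODE 29, so other FOSB transcripts are not covered by these values. In bulk RNA a lower or higher level in every cell and a change in the share of cells expressing a gene cannot be told apart, for this and for the other members.

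Jun family members, which form the core of most AP-1 pairs, are each encoded by a single-exon gene. JUN (c-Jun), the strongest activator of the family, is on chromosome 1 (58780788 to 58784327, minus strand). It had 109.5, 109 and 109 CPM in the siTREX1-labelled libraries and 79.8, 83.9 and 80.0 CPM in the siCtrl libraries. The siTREX1-labelled libraries lay close together and all above siCtrl, 1.33-fold on average (109 ± 0.239 CPM in siTREX1-labelled and 81.3 ± 2.33 CPM in siCtrl libraries, SD, n = 3 each, log2 fold change 0.41, SE 0.03, adjusted p = 0.00053 from edgeR). JUNB, a weaker activator that can oppose c-Jun, is on chromosome 19 (12791496 to 12793315, plus strand). It had 106, 102 and 99.3 CPM in the siTREX1-labelled libraries and 79.4, 82.4 and 78.1 CPM in the siCtrl libraries. JUNB too was higher in all siTREX1-labelled libraries, by 1.26-fold (102 ± 3.37 CPM in siTREX1-labelled and 80.0 ± 2.19 CPM in siCtrl libraries, SD, n = 3 each, log2 fold change 0.34, SE 0.04, adjusted p = 0.00226 from edgeR). Both calls held in all 14 other settings, at log2 fold changes of 0.40 to 0.47 for JUN and 0.31 to 0.53 for JUNB.

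JUND, the member known for steady expression in resting cells, is on the same chromosome as JUNB (18279760 to 18281622, minus strand). It had 198, 209 and 193 CPM in the siTREX1-labelled libraries and 197, 218 and 204 CPM in the siCtrl libraries. The groups overlapped (199.9 ± 8.07 CPM in siTREX1-labelled and 207 ± 10.6 CPM in siCtrl libraries, SD, n = 3 each), at a log2 fold change of -0.06 (SE 0.05, adjusted p = 0.377 from edgeR), which became 0.22 (adjusted p = 0.00149 from edgeR) once a trend with GC content was removed from each library. GC content of the JUND transcript is 69.7%, above that of 99.1% of tested transcripts, whose median is 49.8%, and JUNB at 64.9% is above 94.7%. At the GC content of JUND the trend stood at -0.112, -0.0866 and -0.232 on the log2 scale in the siTREX1-labelled libraries and at 0.0927, 0.2 and 0.137 in the siCtrl libraries. It also raised JUNB to 0.53 and FOSL1 to 0.93, and moved FOSL2 and FOS by 0.01 or less. For JUND, therefore, neither a direction nor an unchanged level can be given from these libraries.

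**Figure D2:**
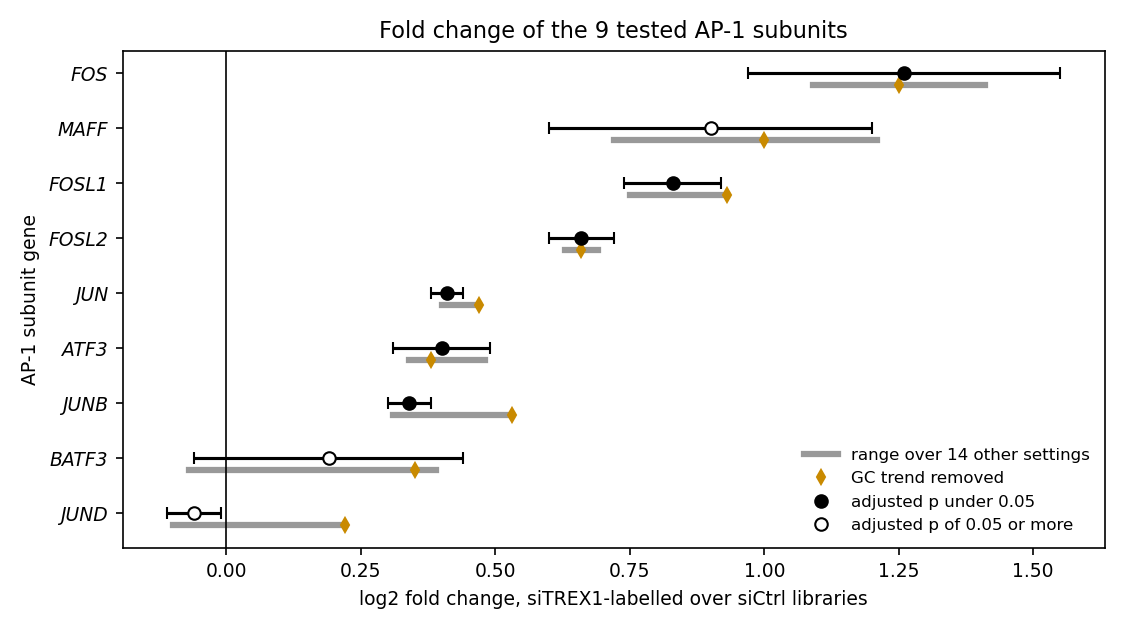
Log2 fold change of the siTREX1-labelled over the siCtrl libraries for the 9 tested AP-1 subunits, with bars of 1 standard error, filled points at an adjusted p under 0.05 in edgeR, grey bars for the range over 14 other settings and diamonds for the fold change with the GC trend removed. FOS, MAFF, FOSL1, FOSL2, JUN, ATF3 and JUNB stayed above 0 in every setting, called or not, BATF3 and JUND crossed 0, and JUND moved from -0.06 to 0.22 with the GC trend removed.

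ATF3, a stress-induced bZIP protein that represses as a pair with itself and also joins Jun proteins, is on chromosome 1 (212608670 to 212620777, plus strand, 4 exons). It had 17.8, 22 and 20.9 CPM in the siTREX1-labelled libraries and 14.7, 15.3 and 15.3 CPM in the siCtrl libraries. The groups did not overlap, though library 1 labelled siTREX1 was nearer to siCtrl than the others were. ATF3 was 1.32-fold higher (20.2 ± 2.17 CPM in siTREX1-labelled and 15.1 ± 0.342 CPM in siCtrl libraries, SD, n = 3 each, log2 fold change 0.40, SE 0.09, adjusted p = 0.017 from edgeR). The call was lost in edgeR without siCtrl replicate 1 (adjusted p = 0.0602), siCtrl replicate 2 (0.0512), siCtrl replicate 3 (0.0534) or siTREX1 replicate 3 (0.0518), with log2 fold changes of 0.38 to 0.41.

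MAFF, a small Maf protein that lacks a transactivation domain, is on chromosome 22 (38201882 to 38216511, plus strand, 3 exons). It had 4.7, 3.89 and 3.31 CPM in the siTREX1-labelled libraries and 1.57, 2.94 and 1.86 CPM in the siCtrl libraries. The groups did not overlap, but the log2 fold change of 0.90 (SE 0.30) missed the threshold (adjusted p = 0.0657 from edgeR). It passed in DESeq2 (adjusted p = 0.0291) and limma-voom (0.0321), and in edgeR with at least 10 counts in all 6 libraries (0.0422), with the GC trend removed (0.0434) or without siCtrl replicate 2 (log2 fold change 1.21, adjusted p = 0.0316).

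BATF3, a short bZIP protein without a transactivation domain and best known from mouse dendritic cells, is on chromosome 1 (212686418 to 212699985, minus strand, 3 exons). It had 6.83, 3.65 and 5.01 CPM in the siTREX1-labelled libraries and 4.42, 5.06 and 4.04 CPM in the siCtrl libraries. Library 1 labelled siTREX1 was the highest and library 2 labelled siTREX1 the lowest of all 6, so the groups overlapped. The log2 fold change was 0.19 (SE 0.25, adjusted p = 0.613 from edgeR) and -0.07 without siTREX1 replicate 1 (adjusted p = 0.853 from edgeR).

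Summed over the 10 members, AP-1 mRNA was 511, 518 and 497 CPM in the siTREX1-labelled libraries and 419, 447 and 419.6 CPM in the siCtrl libraries. The sums did not overlap, and their means of 509 ± 10.3 CPM in the siTREX1-labelled and 429 ± 16.1 CPM in the siCtrl libraries (SD, n = 3 each) stood at a ratio of 1.19. With the GC trend removed the means were 541 CPM in the siTREX1-labelled and 401 CPM in the siCtrl libraries, a ratio of 1.35 and a difference of 139.6 instead of 80.2 CPM. By family, Fos mRNA summed to 68.3, 68.5 and 66.7 CPM in the siTREX1-labelled libraries, against 41.6, 39.3 and 36.2 CPM with siCtrl, a ratio of 1.74. Jun mRNA summed to 414, 419 and 402 CPM in the siTREX1-labelled libraries and 357, 385 and 362 CPM in the siCtrl libraries, a ratio of 1.12. The Fos family's part of Fos and Jun mRNA was thus 14.2%, 14% and 14.2% in the siTREX1-labelled libraries and 10.4%, 9.27% and 9.1% in the siCtrl libraries. These sums follow from the members' own values and have no test of their own. The family sums and the Fos part were not taken with the GC trend removed. Its removal moved the log2 fold change of JUND from -0.06 to 0.22 and of JUNB from 0.34 to 0.53. FOSL1 moved from 0.83 to 0.93 and FOSL2 stayed at 0.66, so the size of the contrast between the families depends on the trend. With the trend removed, FOSL1 held 7.82% of the 10-member sum in the siTREX1-labelled and 5.44% in the siCtrl libraries. In the same order, FOSL2 held 4.49% and 3.77%, JUN 20.6% and 19.9%, JUNB 20.2% and 18.6%, and JUND 40.8% and 46.6%. None of these shares overlapped between the groups.

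**Figure D3:**
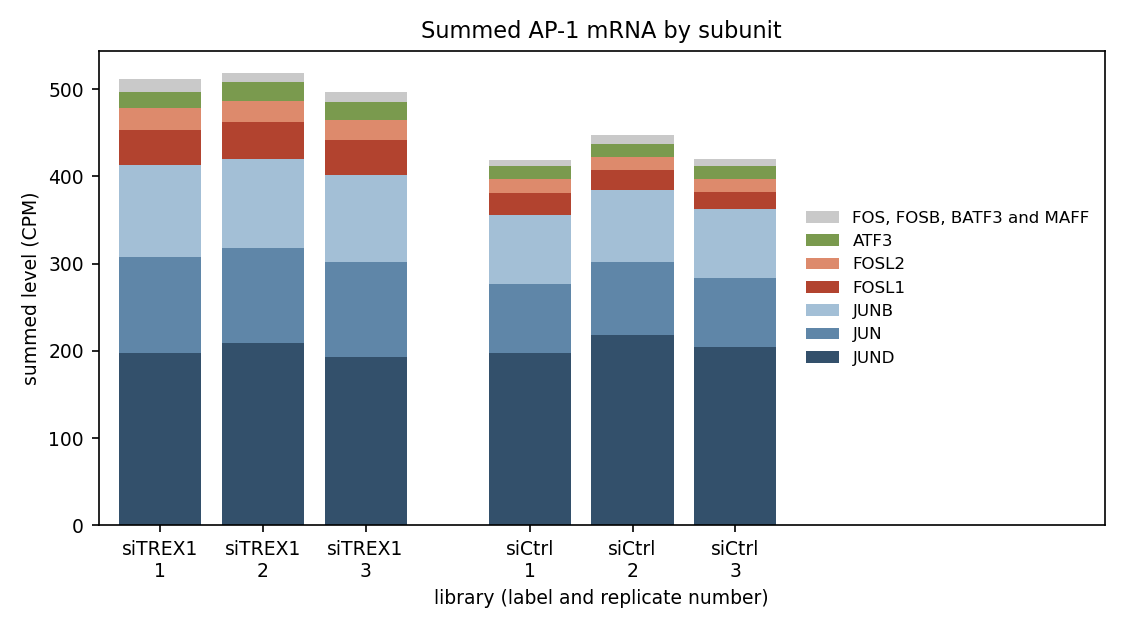
Summed level in CPM of the 10 AP-1 subunit mRNAs in each library, siTREX1-labelled on the left and siCtrl on the right, with 1 stacked bar per library and 1 colour per subunit or group of subunits. The siTREX1-labelled sums were 497 to 518 CPM and the siCtrl sums 419 to 447 CPM, while the JUND part was similar in height in both groups in these CPM (log2 fold change -0.06, and 0.22 with the GC trend removed).

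Within this sum the share of JUND was 38.8%, 40.3% and 38.8% in the siTREX1-labelled libraries and 47.1%, 48.8% and 48.6% in the siCtrl libraries. JUND thus held a smaller share in every siTREX1-labelled library, with a mean difference of -8.9 percentage points, and of -5.78 points (40.8% in siTREX1-labelled and 46.6% in siCtrl libraries) with the GC trend removed. FOSL1 held 8.01% ± 0.209 in the siTREX1-labelled and 5.29% ± 0.596 in the siCtrl libraries (SD, n = 3 each). JUN held 21.5% ± 0.471 in the siTREX1-labelled and 19% ± 0.166 in the siCtrl libraries (SD, n = 3 each). Both shares were larger in every siTREX1-labelled library, but with the GC trend removed the JUN share was 20.6% in the siTREX1-labelled and 19.9% in the siCtrl libraries, a difference of 0.76 instead of 2.54 percentage points. Per CPM of JUND there were 0.552, 0.523 and 0.568 CPM of JUN in the siTREX1-labelled libraries and 0.404, 0.385 and 0.392 in the siCtrl libraries. This quotient was not taken with the GC trend removed, which moved JUND (log2 fold change -0.06 to 0.22) more than JUN (0.41 to 0.47). Within Fos mRNA, FOSL1 held 58.3% to 62% in the siTREX1-labelled libraries and 55.8% to 60.1% in the siCtrl libraries, ranges that overlapped. FOSL2 held 37.2%, 34.6% and 35.5% of Fos mRNA in the siTREX1-labelled libraries and 37.8%, 38.1% and 40.6% in the siCtrl libraries, without overlap. FOS held 4.31%, 3.34% and 4.34% in the siTREX1-labelled libraries and 2.05%, 3.45% and 3.26% in the siCtrl libraries, with overlap.

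The listed transcripts also share features that the choice of members did not use. The word TATTTAT, typical of AU-rich elements that mark short-lived mRNAs, occurred in the 3' untranslated region of 7 of the 10 transcripts (FOS, FOSL1, FOSL2, JUN, JUND, ATF3 and MAFF), against 28.4% of 10867 tested transcripts. Its core ATTTA was in 9 of 10, FOSB being the exception, against 64.7% of tested transcripts. FOSL2 has the longest such region, 4867 nt with 9 ATTTA words, and the median over tested transcripts is 856 nt. TATTTAT was present in members that rose and in MAFF and JUND, which did not pass the test (JUND did with the GC trend removed, as did MAFF), and absent from JUNB, which rose. A single transcript stands for each gene, 1 of 10 for FOS and 1 of 11 for ATF3 in GENCODE 29, so a shift between transcripts can appear as a change in the gene. Genes on the opposite strand overlap exons of FOSB (ERCC1), FOSL2 (FLJ31356), JUNB (HOOK2) and MAFF (PLA2G6), and whether strand was used in the quantification is not given in the sources used here. HOOK2 had a log2 fold change of -0.08 (adjusted p = 0.768 from edgeR) and PLA2G6 of -1.28 (adjusted p = 0.108 from edgeR).

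Other bZIP proteins that can pair with AP-1 subunits numbered 30, of which 26 were tested, 10 rose, 3 fell and 13 did not pass the test, with a median log2 fold change of 0.16, beside 17.8% higher and 15.5% lower among all tested genes. ATF5, a stress-responsive relative of ATF4, had 30.7, 31 and 31.9 CPM in the siTREX1-labelled libraries and 6.96, 7.86 and 8.06 CPM in the siCtrl libraries. That is 4.03-fold higher (log2 fold change 2.01, SE 0.07, adjusted p = 4.94e-05 from edgeR). NFE2L2 (NRF2), the regulator of antioxidant genes that pairs with small Maf proteins, averaged 105 ± 4.04 CPM in siTREX1-labelled and 66.7 ± 2.43 CPM in siCtrl libraries (SD, n = 3 each, log2 fold change 0.64, adjusted p = 0.000258 from edgeR). Its small Maf partner MAFG rose by 0.35 (adjusted p = 0.00115) and ATF4, the effector of the integrated stress response, by 0.43 on the log2 scale (adjusted p = 0.0011 from edgeR). CEBPB had a log2 fold change of -0.44 (adjusted p = 0.00891 from edgeR), and of -0.22 (adjusted p = 0.0441 from edgeR) with the GC trend removed. JDP2, a Jun partner that represses AP-1, fell by 0.74 on the log2 scale (adjusted p = 0.0106 from edgeR). MAF, named after its value was seen, was the other that fell, by 0.31 (adjusted p = 0.0129 from edgeR). CEBPG at 0.03 (adjusted p = 0.809 from edgeR, and -0.01 with the GC trend removed) did not pass. DDIT3 (CHOP) at -0.21 did not pass either (adjusted p = 0.058 from edgeR), but did in DESeq2 (0.0174) and, in edgeR, with the GC trend removed (0.0384) or at least 10 counts in all 6 libraries (0.0442). Among the 4 untested partners, BATF was at 0 in all libraries and BATF2 and NFE2 were too low, all named with values seen. The number called dropped to 8 without siCtrl replicate 3 or siTREX1 replicate 1.

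Kinases that switch AP-1 on, the factors that act at its promoters and the ligases that degrade it were all tested, 40 genes, of which 9 rose, 5 fell and 26 did not pass the test, with a median log2 fold change of 0.06. These shares are near the 17.8% higher and 15.5% lower among all tested genes, so the counts are no result about this list. SRF, the serum response factor that binds the FOS promoter with ternary complex factors, had 90.3, 91.1 and 92.2 CPM in the siTREX1-labelled libraries and 59.3, 58.7 and 59.9 CPM in the siCtrl libraries. It rose 1.52-fold without overlap (log2 fold change 0.60, SE 0.03, adjusted p = 0.000109 from edgeR). The kinase RPS6KA3 (RSK2) rose by 0.43 on the log2 scale (adjusted p = 0.00128 from edgeR). MAPK13, a p38 kinase, averaged 9.17 ± 0.0838 CPM in siTREX1-labelled and 18.6 ± 1.69 CPM in siCtrl libraries (SD, n = 3 each) and fell by 1.04 on the log2 scale (adjusted p = 0.000716 from edgeR). ELK3, a ternary complex factor, fell by 0.70 (adjusted p = 0.00182) and RPS6KA1 (RSK1) by 0.41 (adjusted p = 0.00342 from edgeR), and the other 2 that fell, named after their values were seen, were MAPK11 (-0.34) and MEF2D (-0.63). MAP2K2 (MEK2) at 0.03 (adjusted p = 0.677 from edgeR) did not pass the test, although it stood at 0.23 (adjusted p = 0.00694 from edgeR) with the GC trend removed. These are mRNA levels, and phosphorylation was not measured here.

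Textbook target genes of AP-1 included genes that rose and genes that fell. Of 40, 26 were tested, 9 rose, 5 fell and 12 did not pass the test, with a median log2 fold change of 0.08, beside 17.8% higher and 15.5% lower among all tested genes. CCL2, a monocyte chemoattractant, had 55.2, 59.8 and 53.6 CPM in the siTREX1-labelled libraries and 9.19, 11.1 and 10.9 CPM in the siCtrl libraries. It rose 5.33-fold (log2 fold change 2.42, SE 0.09, adjusted p = 5.55e-05 from edgeR). The groups stood far apart relative to their spread. The cytokine LIF, the EGF receptor ligand EREG and the prostaglandin synthase PTGS2 rose by 1.97 (adjusted p = 9.25e-05), 2.10 (0.000198) and 2.05 on the log2 scale (0.000232, all from edgeR). CCL2, LIF and PTGS2 are also known as NF-kB target genes.

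VEGFA, which encodes an angiogenic growth factor, fell by 0.41 on the log2 scale (76.5, 80.0 and 80.9 CPM in the siTREX1-labelled libraries and 102, 105 and 106 CPM in the siCtrl libraries, adjusted p = 0.000527 from edgeR). The other 4 that fell, named after their values were seen, were the matrix protease MMP14 (-0.21), the urokinase receptor PLAUR (-1.15), the plasminogen activator PLAT (-0.54) and the cyclin CCND1 (-0.32). VIM had a log2 fold change of 0.01 (adjusted p = 0.573 from edgeR). MT2A, a metallothionein, had one of -0.06 (adjusted p = 0.219), and 0.10 with the GC trend removed. Among the 14 untested targets were 6 at 0 in all libraries, the stromelysin MMP3, the collagenase MMP13, the cytokines IL6 and IL2, AREG and the keratinocyte protein IVL.

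**Figure D4:**
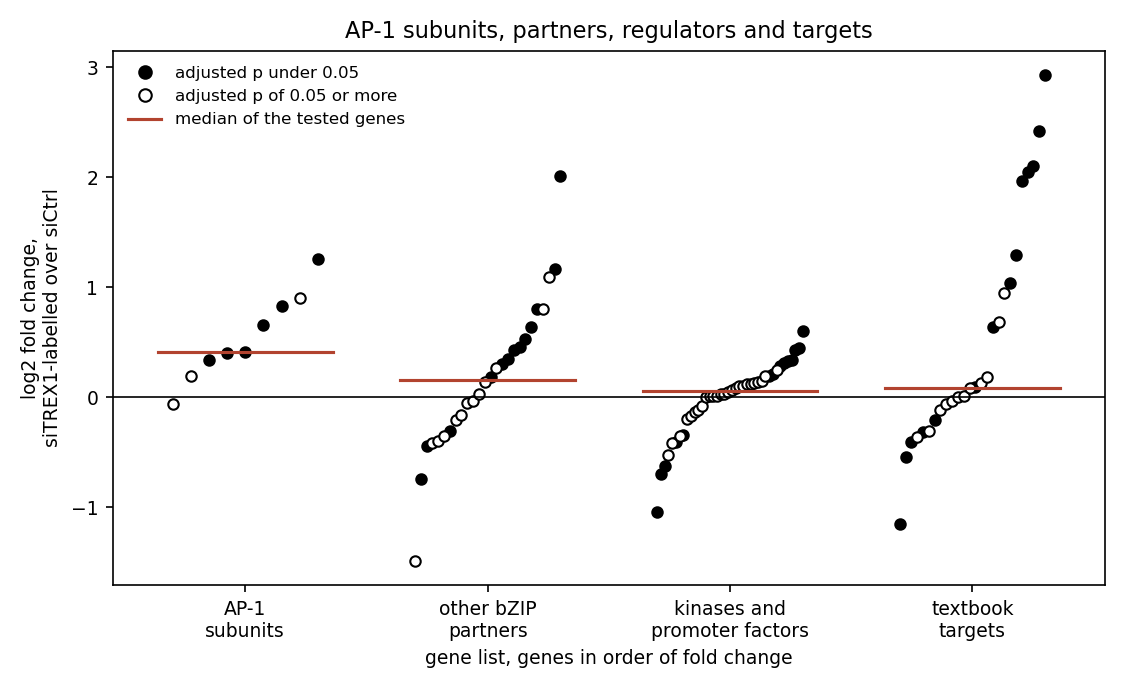
Log2 fold change of the siTREX1-labelled over the siCtrl libraries for each tested gene of 4 lists, the AP-1 subunits (9), other bZIP partners (26), kinases and promoter factors (40) and textbook targets (26), with filled points at an adjusted p under 0.05 in edgeR and a line at each median. The medians were 0.41, 0.16, 0.06 and 0.08, with genes on both sides of 0 in every list, the AP-1 subunits holding only JUND (-0.06, and 0.22 with the GC trend removed) below it.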

How the data were processed

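RNA-seq of H69AR cells gave 6 libraries, 3 labelled siTREX1 and 3 siCtrl. Reads were quantified by the authors with kallisto, and tximport (scaledTPM) turned transcript levels into the estimated counts they deposited, for 1 transcript per gene symbol. Each library is scaled to its own depth alone, and the values are independent of transcript length, hence not read numbers. FastQC and hg19 also stand in the submitters' processing notes. Version of kallisto and transcript annotation: not given in the sources used here. A line without a symbol, 0.0925% to 0.109% of each library, was left out.

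The deposited estimated counts were rounded and compared by the robust quasi-likelihood test of edgeR 4.0.16 (R 4.3.3), after filterByExpr at a minimum count of 10 and TMM scaling, with Benjamini-Hochberg adjustment over all 13221 tested genes. No 2 libraries were identical. Transcript features were read from GENCODE 29 (GRCh38), where 99.3% of listed transcripts were found, with no coordinates converted between builds. The test was tried on simulated data with a single dispersion of 0.0356 for all genes and few changed genes, none at low counts. That trial does not cover members at low counts such as FOS, nor dispersion that differs between genes.

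The members and gene lists were chosen with earlier results of these data known. Genes named are all members, TREX1 and, from each other list, up to 6 tested genes with the lowest p and up to 2 with the highest mean CPM that did not pass, and any others are said to be named after their values were seen. Some genes that this rule or the lists would name are not reported here. No p is given for sums or shares of members.

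As alternatives, scaling was by RLE factors or by library size alone, and others were no low-count filter, DESeq2 1.42.0, voom of limma 3.58.1, a minimum of 10 counts in each of the 6 libraries, the replicate number as a block, each library left out, TMM factors in the summed CPM, and the sums and shares over the Fos and Jun families alone. Removal of a GC trend and the CRE-core and TGACATCA searches were added with the data seen.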

Additional observations from a re-analysis of the deposited data

How the results depend on the processing

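FOSL1, FOSL2, JUN and JUNB kept direction and call in all 14 alternatives, and the count of AP-1 members called was 4 to 8. With the GC trend removed, JUND turned to 0.22, CEBPG to -0.01 and MT2A to 0.10 on the log2 scale, and the differences in share turned to -0.0023 percentage points for FOSB and -0.0952 for ATF3. Over the left-out libraries the log2 fold change ran from -0.62 to -0.16 for TREX1, -0.07 to 0.39 for BATF3, -0.02 to 0.10 for CEBPG and -7.5e-05 to 0.08 for MAP2K2, the difference in share from -0.00753 to 0.0104 points for FOSB and -0.194 to 0.122 for BATF3, and the count of other bZIP partners called from 8 to 11. The cause was not tested. Where 1 library is left out, its group rests on the other 2.

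Same-numbered libraries of the 2 groups had low correlations of their deviations from the group means (0.0183, 0.0261 and 0.0245 for numbers 1, 2 and 3). Libraries of unlike number had lower ones, from -0.0431 to 0.0177. These values do not decide whether the numbers mark pairs. With the replicate block, 3419 genes were called instead of 4398, and 5 AP-1 members, FOS having a log2 fold change of 1.27 (adjusted p = 0.0712 from edgeR). Of the other named genes JDP2 also missed the threshold under the block (-0.74, adjusted p = 0.0514 from edgeR). FOS, MAFF, BATF3 and FOSB, each at under 7 CPM, are the members whose precision depth limits most.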

Other observations

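Some of the target genes outside the naming rule stood out by size and were picked after their values were seen. EDN1, the vasoconstrictor endothelin, had a mean of 3.46 CPM in the siTREX1-labelled libraries and 0.44 CPM in the siCtrl libraries (log2 fold change 2.93, SE 0.37, adjusted p = 0.00217 from edgeR). These means rest on 85, 64.7 and 46.4 estimated counts in the siTREX1-labelled and 9.61, 9.56 and 6.42 in the siCtrl libraries. Such low counts limit the precision of this fold change. HBEGF, an EGF receptor ligand like EREG, averaged 20.4 CPM in siTREX1-labelled and 8.2 CPM in siCtrl libraries (log2 fold change 1.29, SE 0.11, adjusted p = 0.000705 from edgeR). DUSP1, the phosphatase that ends MAP kinase signals, averaged 9.27 CPM in siTREX1-labelled and 5.88 CPM in siCtrl libraries (log2 fold change 0.64, adjusted p = 0.00725 from edgeR). Among the bZIP partners ATF1, a CREB relative, averaged 29.7 ± 1.24 CPM in siTREX1-labelled and 13 ± 4.09 CPM in siCtrl libraries (SD, n = 3 each, log2 fold change 1.17, adjusted p = 0.0109 from edgeR).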
